A study of Thermothelomyces thermophilus ATCC 42464 with 24 samples.

Results

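Of the 9110 genes counted in the fungus Myceliophthora thermophila, 59 were high in wild type (WT) mycelium on glucose and lower in every one of the 5 deletion strains sampled beside it. They were chosen by their glucose levels: a mean of at least 10 CPM (the count of a gene per 1000000 counts of its library) in WT, and at least 3 times the mean of each of the strains labelled Δgrf-1 through Δgrf-3, Δcre-1 and ΔlaeA. Bounds on the WT level on cellulose were set as well, so that genes far lower on cellulose at 2 d than on glucose, far higher there, or rising steeply between 2 d and 6 d were left out. Of 6986 genes with at least 10 CPM in WT on glucose, 107 met the 3-fold condition, and 59 of those met the bounds, while 45 failed the bound on glucose over 2 d and 24 the bound on 6 d over 2 d, some both. Because the rule used the glucose libraries and the WT libraries of 2 d and 6 d on cellulose, values there are given as a description with no test.

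The libraries came from mycelium of strain ATCC 42464 and mutants made from it, grown at 45 °C. On 2% glucose, harvested at 24 h, the labels give 2 libraries to each of ΔlaeA (named ΔlaeA-Glu below), Δgrf-1-Glu, Δgrf-3-Glu, Δcre-1-Glu and WT-Glu, and Δgrf-2-Glu had 1 usable library. ΔlaeA and WT were also grown on cellulose in its microcrystalline form Avicel, with 2 libraries of either at 2, 4 and 6 d (ΔlaeA-Avi-2d to WT-Avi-6d). The study's methods describe each deletion as a replacement of the coding region by a drug resistance cassette with Cas9, and whether a strain stands for 1 transformant was not given in the sources used here. The labels number the replicates without saying what separates them. The study calls the Avicel samples of a time point biological replicates. How the cultures were kept apart is not given in the sources used here, so p-values measure the spread between these libraries only.

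LaeA is a putative methyltransferase best known from Aspergillus, where it governs many secondary metabolite gene clusters and development. Cre-1 is the zinc finger repressor of carbon catabolite repression, through which glucose keeps the genes for use of other carbon sources low, and Grf-1 to Grf-3 are further transcription factors, named growth regulatory factors. Filamentous fungi on cellulose first have to secrete cellulases and other hydrolases before soluble sugar reaches the mycelium, so genes can differ with carbon source, age of the culture and regulator at once.

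The names of the strains are used here as labels only. In the libraries labelled ΔlaeA on glucose the gene laeA (Mycth_2294559) averaged 277 CPM, against 22.8 CPM in WT, and cre-1 (Mycth_2310085) averaged 1681 CPM in those labelled Δcre-1, against 658 CPM in WT. The gene grf-1 (Mycth_37566) stood at 207 CPM in Δgrf-1 and 167 CPM in WT, grf-3 (Mycth_2309668) at 81.6 CPM in Δgrf-3 and 64.9 CPM in WT, and grf-2 (Mycth_2089183) at 118 CPM in Δgrf-2 and 203 CPM in WT. None of the targeted genes was near 0 in the libraries named for its deletion, and 4 of the 5 were higher there than in WT. Every direction below is therefore that of libraries labelled with a strain name. Totals per library ran from 18114947 to 33937501 counts, so that a count of 3, taken as the floor, stood for 0.0884 to 0.166 CPM (counting error only).

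The 59 genes took 0.388% of all counts in ΔlaeA-Glu, 0.240% in Δgrf-1-Glu, 0.426% in the single Δgrf-2-Glu library, 0.311% in Δgrf-3-Glu and 0.156% in Δcre-1-Glu, against 1.93% in WT-Glu. On Avicel at 2, 4 and 6 d the same genes took 0.469%, 2.51% and 1.86% of counts in ΔlaeA libraries, against 1.85%, 2.23% and 1.92% in WT libraries. The bounds of the rule removed genes far lower in WT on Avicel at 2 d, so the WT share of that day was in part fixed by the choice. The ΔlaeA shares of 4 d and 6 d are sums, to which genes of high level add most. In single genes the median of log2 CPM relative to WT-Glu was -0.82 and -0.93 in the ΔlaeA-Avi-4d libraries and -1.10 and -1.17 in the ΔlaeA-Avi-6d libraries, against -0.51 and -0.35 in WT-Avi-4d and -0.55 and -0.41 in WT-Avi-6d. By share of counts, ΔlaeA was thus far below WT on Avicel at 2 d, but not at 4 d or 6 d. On glucose it was far below WT too, a gap that the rule asked for. The other deletion labels had no Avicel libraries. The 59 are called the WT-high genes here, after the glucose libraries. In bulk RNA a lower level in each cell and fewer cells with the transcript cannot be told apart.

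**Figure D1:**
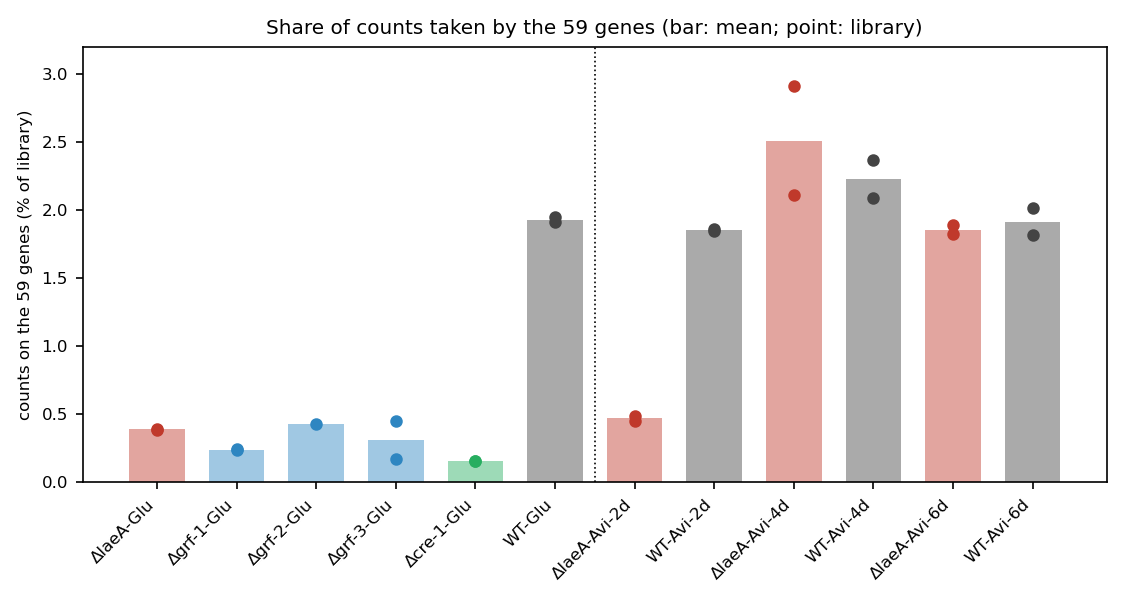
Percent of each library's counts that fell on the 59 WT-high genes, by group; bars are means of the libraries (the single library for Δgrf-2-Glu) and points single libraries, with glucose left and Avicel right of the dotted line. The 5 deletion labels on glucose lie between 0.156% and 0.426% and ΔlaeA-Avi-2d at 0.469%, while WT-Glu and the other Avicel groups lie between 1.85% and 2.51%. The gap on glucose was asked for by the rule.

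No gene symbol was attached to any of the 59 in the reference used, and 13 of them stood in the study's table of product descriptions, 11 with a description. A pair carried the text of the N-terminal part of fungal transcriptional regulatory proteins (Mycth_117146 and Mycth_2057132). The hydrolases were Mycth_105128, of carbohydrate esterase family 3, whose members remove acetyl groups from xylan, and Mycth_104570, an alpha-mannanase, the kind of enzyme that cleaves mannan. Of metabolic proteins there were Mycth_108836, an FAD-dependent pyridine nucleotide-disulphide oxidoreductase, Mycth_2075738, of the class V aminotransferase and cysteine desulphurase family, Mycth_103818, with an NAD(P)-binding fold, and Mycth_111314, of the DUF706 family that holds myo-inositol oxygenases. Mycth_112824 was described as NmrA-like, after a negative regulator of nitrogen metabolite repression genes in Aspergillus, Mycth_2095534 carried the actin-binding RPEL repeat, and Mycth_109790 a region of unknown function. Of the 13, 2 fell in the class of transcription regulators, which held 4.58% of the 1266 genes in that table, 1 in oxidoreductases (5.13%) and 1 in carbohydrate-active enzymes by the text patterns used (4.42%). None fell among transporters (4.82%) or secondary metabolism (2.61%), and 13 genes are too few to read that as absence. The sporulation patterns matched 0 genes of that table, so no member could fall there. Of the 59 genes, 46 were not in that table, so that the classes describe few of them.

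The WT-high genes ranged widely in level. Their WT-Glu mean ran from 11.01 to 2880 CPM with a median of 147 CPM, and the 8 highest held 60.2% of the counts of all 59. Per base of transcript the median was 73.8 RPKM over the 58 genes with a recovered length, and the highest was Mycth_86146 with 1795 RPKM, against 596 RPKM for Mycth_61507, which led by CPM and has a transcript of 4831 bases. The median length of the genes was 1640 bases, against 1554 bases over all genes.

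Among the 8 with the highest WT-Glu CPM, Mycth_61507 had 148 CPM in the lowest, 381 CPM in the median and 737 CPM in the highest of the 9 deletion libraries on glucose, against 3037 and 2724 CPM in the 2 WT-Glu libraries. The regulator gene Mycth_117146 had 21.1, 95.8 and 174 CPM in the lowest, median and highest deletion library, against 963 and 806 CPM in WT-Glu. These genes therefore lay several fold below WT in each deletion library, with the lowest level of the regulator in Δcre-1-Glu (21.7 and 21.1 CPM). For Mycth_86146 the deletion libraries gave 28.6, 79.3 and 518 CPM as lowest, median and highest, against 2029 and 1644 CPM in WT-Glu. Among these 8 genes Mycth_94171 spread most over the deletions, with 7.11, 159 and 511 CPM as lowest, median and highest, against 1426 and 1823 CPM in WT-Glu. By strain it had 9.58 and 7.11 CPM in Δcre-1-Glu, 43.6 and 41.5 CPM in Δgrf-1-Glu, 159 CPM in Δgrf-2-Glu, 194 and 511 CPM in Δgrf-3-Glu and 433 and 505 CPM in ΔlaeA-Glu, so that the Δgrf-3-Glu pair lay on both sides of the ΔlaeA-Glu pair.

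The other 4 of the 8 highest genes differed in how far the deletion libraries lay apart. Mycth_75351 had 81.7, 186 and 287 CPM as lowest, median and highest over the 9 deletion libraries, against 893 and 1103 CPM in WT-Glu, and Mycth_2311457 had 179, 224 and 427 CPM, against 1176 and 760 CPM in WT-Glu. In Mycth_2313040 the deletion libraries ran from 34.05 to 528 CPM around a median of 286 CPM, against 2146 and 1252 CPM in WT-Glu, and in Mycth_2307871 from 31.6 to 294 CPM around 56.7 CPM, against 970 and 482 CPM in WT-Glu. No deletion library reached a WT library in any of these genes.

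By the ratio of the WT-Glu mean to the highest deletion mean, the genes lay close to the threshold, with a median of 3.69, and 39 of 59 were under 4. The highest ratio was that of the NmrA-like gene Mycth_112824 (14.3), and it rested on 1 library: the deletion libraries gave 0.778, 4.58 and 7.14 CPM as lowest, median and highest, against 16.6 and 175 CPM in WT-Glu. For Mycth_2300067 (12.5) they gave 0.871, 3.30 and 11.8 CPM, against 118 and 176 CPM in both WT-Glu libraries. So the second of these genes was far above every deletion library in both WT libraries and the first in replicate 2 mainly. Mycth_2305454 (11.8) had at most 1.87 CPM in a deletion library, against 12.1 and 19.98 CPM in WT-Glu, and Mycth_2297595 (9.31) at most 2.90 CPM, against 14.5 and 30.1 CPM in WT-Glu. The regulator gene Mycth_2057132 (8.15) had at most 2.58 CPM in a deletion library, against 8.23 and 33.8 CPM in WT-Glu. Mycth_2310322 (7.10) had at most 6.97 CPM, against 27.5 and 71.4 CPM in WT-Glu. The last pair of the 8 stood at higher levels, Mycth_2316580 (6.09) with at most 42.5 CPM in a deletion library, against 277 and 230 CPM in WT-Glu, and Mycth_52496 (5.48) with at most 61.7 CPM, against 237 and 439 CPM in WT-Glu.

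**Figure D2:**
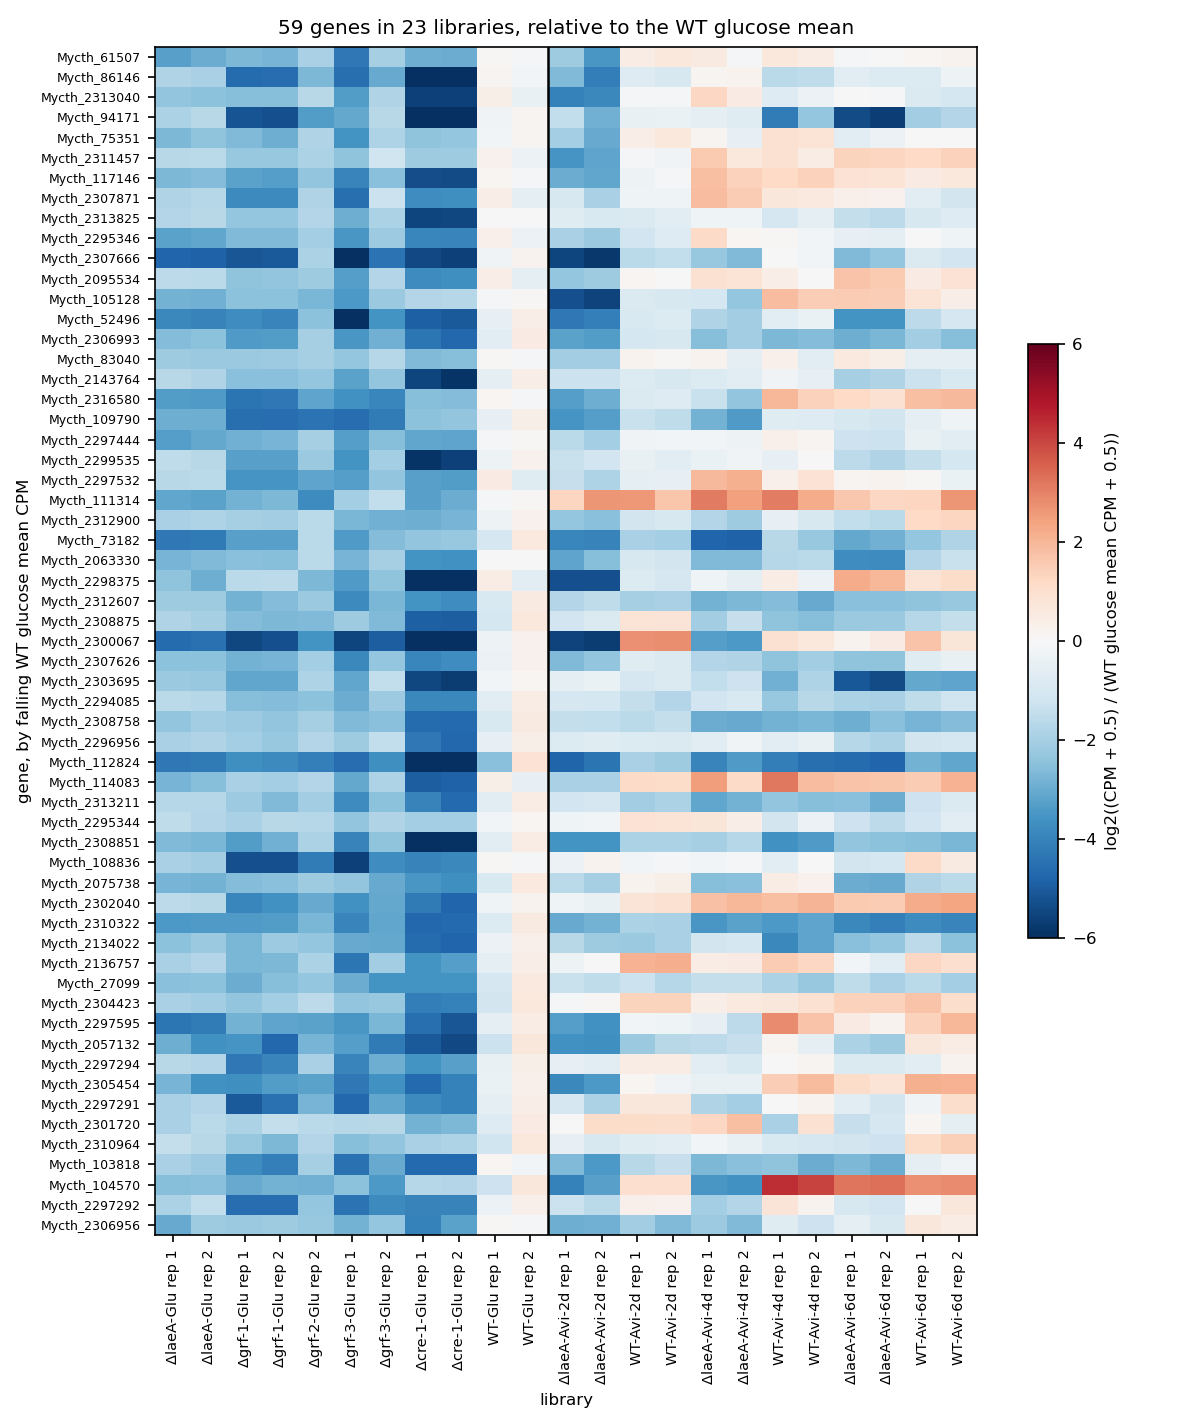
The 59 WT-high genes (rows, by falling WT-Glu mean CPM) in 23 libraries (columns), as log2 of CPM plus 0.5 over the WT-Glu mean plus 0.5; the colour scale saturates at 6 in either direction, and the black line parts glucose from Avicel. The median of the genes is between -4.03 and -2.15 in the 9 deletion libraries on glucose, -1.97 and -2.12 in the ΔlaeA-Avi-2d libraries, and between -0.72 and -0.35 in the 6 WT Avicel libraries.

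The deletion labels differed in how low these genes were. The WT-Glu mean was 5.29 times the ΔlaeA-Glu mean in the median of the 59 genes, 7.18 times the Δgrf-1-Glu mean (over the 58 genes with a count there), 4.58 times the Δgrf-2-Glu level, 7.47 times the Δgrf-3-Glu mean and 23.9 times the Δcre-1-Glu mean. Δcre-1-Glu was the lowest of the 5 for 41 genes and Δgrf-1-Glu for 12, while the highest was Δgrf-2-Glu for 27 genes and ΔlaeA-Glu for 22. With TMM scaling, which sets WT-Glu lower against Δcre-1-Glu by 0.60 on the log2 scale, the median ratio to Δcre-1-Glu was 15.8, and Δcre-1-Glu was the lowest for 36 genes. The label Δcre-1-Glu was thus the lowest for most of them on either scale, but the share of all genes lowest there was not computed. Fewer genes of any kind reached 10 CPM in Δcre-1-Glu (6104) than in WT-Glu (6986). By CPM it was the highest of the 5 labels for 4 of the 59 genes, both hydrolases among them. Mycth_105128, the carbohydrate esterase, had 52.6 and 50.6 CPM in ΔlaeA-Glu and 111 and 114 CPM in Δcre-1-Glu, its highest deletion label, against 365 and 394 CPM in WT-Glu. The alpha-mannanase gene Mycth_104570 had 1.81 and 1.89 CPM in ΔlaeA-Glu and 3.60 and 3.48 CPM in Δcre-1-Glu, against 5.08 and 20.7 CPM in WT-Glu. Mycth_109790 shared this order, with 32.7 and 32.5 CPM in ΔlaeA-Glu, 10.4 and 9.96 CPM in Δgrf-1-Glu and 45.6 and 48.5 CPM in Δcre-1-Glu, against 177 and 322 CPM in WT-Glu.

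The remaining genes with a description differed in which strain label was highest. The oxidoreductase gene Mycth_108836 was highest among the deletions in ΔlaeA-Glu (14.9 and 13.6 CPM) and stood at 1.04 and 1.02 CPM in Δgrf-1-Glu, against 63.1 and 55.4 CPM in WT-Glu. Mycth_111314 of the DUF706 family was highest among them in Δgrf-3-Glu (52.5 and 76.6 CPM) and lowest in Δgrf-2-Glu (15.0 CPM), against 204 and 224 CPM in WT-Glu. Both had close values in the WT-Glu libraries. The aminotransferase gene Mycth_2075738 ran from 3.58 to 11.2 CPM over the deletion libraries, against 26.5 and 75.8 CPM in WT-Glu, Mycth_103818 from 0.0484 to 3.15 CPM, against 15.0 and 12.2 CPM, and the RPEL gene Mycth_2095534 from 32.8 to 154 CPM, against 599 and 310 CPM.

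The list depended on single libraries, most of all on those of WT-Glu and on the single Δgrf-2-Glu library. The lower WT library was above all 9 deletion libraries in 59 of 59 genes; the rule asked for that contrast, and 17.0% of all 8827 genes tested had such a gap. Taken alone, however, replicate 1 was at least 3 times every deletion mean in 34 genes and replicate 2 in 52, both in 27, only replicate 1 in 7 and only replicate 2 in 25. Replicate 2 was at least 2 times replicate 1 in 18 of the 59 genes and replicate 1 at least 2 times replicate 2 in 3, while 3.51% of the genes with at least 10 CPM in WT-Glu were that far apart in either direction. Selected with replicate 2 alone the list would have 66 genes, 42 of them shared with the 59, and with replicate 1 alone 40 genes, 31 of them shared. The Δgrf-3 pair stood apart too: 25 of the 59 genes were at least 2-fold higher in replicate 2 (5.43% of genes with at least 10 CPM there), and the list took 0.170% and 0.452% of the counts of the pair.

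**Figure D3:**
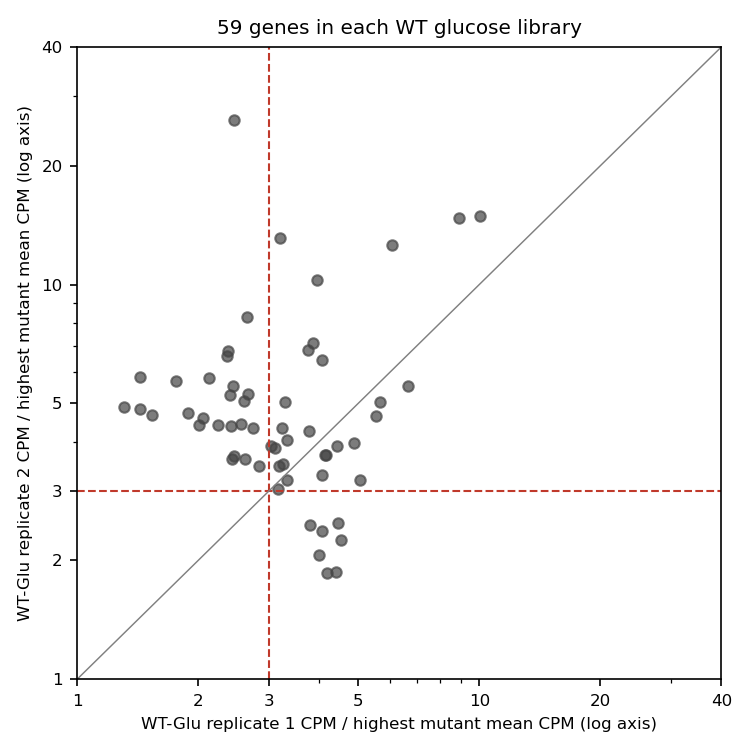
CPM of each WT-Glu library over the highest deletion mean on glucose for the 59 WT-high genes (log axes; dashed lines at 3, the ratio the rule asked of the mean; grey line, equal values). Points right of and above both dashed lines are the 27 genes past 3 in both libraries; 25 lie above the horizontal line only and 7 right of the vertical line only.

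Just inside the threshold were Mycth_2298375, with a WT-Glu mean of 185 CPM that was 3.02 times the Δgrf-1-Glu mean of 61.3 CPM, and Mycth_2299535, with a WT-Glu mean of 232 CPM that was 3.02 times the ΔlaeA-Glu mean of 76.8 CPM. Just outside it were Mycth_2300559, whose WT-Glu mean of 79.4 CPM was 2.95 times the Δgrf-2-Glu level of 26.9 CPM, and Mycth_90354, whose mean of 515 CPM was 2.92 times the Δgrf-2-Glu level of 176 CPM. The single Δgrf-2-Glu library set the bound often, and 78 genes would pass without it.

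Some WT-high genes were neighbours. All 59 were placed in the gene order of the reference, on 7 chromosomes, and 11 of them (18.6%) had another within 3 positions, as 3.62% of all genes had. They formed 5 runs, each with no other counted gene between its members. In the only run of 3, Mycth_2297291, Mycth_2297292 and Mycth_2297294, the level in Δgrf-1-Glu was nearly nil, with 0 and 0.233 CPM, 0 and 0 CPM, and 0.518 and 0.791 CPM, and that in ΔlaeA-Glu was the highest of the deletions, with 3.73 and 4.29 CPM, 2.72 and 3.68 CPM, and 5.76 and 5.28 CPM. In WT-Glu they had 10.7 and 21.2 CPM, 8.78 and 13.9 CPM, and 14.1 and 24.4 CPM. The 0 counts of Mycth_2297292 in both Δgrf-1-Glu libraries allow levels of up to 0.155 and 0.140 CPM. The nearest gene on one side of the run, Mycth_2297289, was not near nil in Δgrf-1-Glu, with means of 38.3 CPM in ΔlaeA-Glu, 25.1 CPM in Δgrf-1-Glu, 10.5 CPM in Δcre-1-Glu and 32.98 CPM in WT-Glu, nor was Mycth_2050031 on the other, with 14.1, 18.3, 9.39 and 20.4 CPM in that order.

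The other 4 runs were pairs. Mycth_75351 and Mycth_61507, 2 of the 8 highest genes, stood side by side, as did the highly expressed Mycth_2313040 and the regulator gene Mycth_117146, the esterase gene Mycth_105128 and Mycth_109790, and Mycth_2295344 and Mycth_2295346. The genes beside these pairs were not alike. Next to the regulator's pair, Mycth_2313038 had 48.8 CPM in ΔlaeA-Glu, 70.5 CPM in Δgrf-1-Glu, 53.3 CPM in Δgrf-2-Glu, 69.8 CPM in Δgrf-3-Glu and 38.3 CPM in Δcre-1-Glu, against 53.2 CPM in WT-Glu. On the other side Mycth_2313063 had 28.1, 13.4, 20.5, 13.8 and 7.21 CPM in the same 5 labels, against 26.3 CPM in WT-Glu, so that it was lower in Δcre-1-Glu and in some Δgrf labels. Beside Mycth_75351, Mycth_2113181 had 15.7, 66.98, 63.5, 55.6 and 9.34 CPM in those labels, against 52.2 CPM in WT-Glu, low in ΔlaeA-Glu and Δcre-1-Glu only. Whether counting used the strand is not given in the sources used here, so reads of overlapping neighbours cannot be told apart.

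On Avicel the WT-high genes differed gene by gene in WT. That many lay near their glucose level was in part fixed by the bounds of the rule. The WT-Avi mean was above the WT-Glu mean for 18, 25 and 24 of the 59 genes at 2, 4 and 6 d, at least 2 times it for 7, 10 and 13, and at most 0.5 times it for 18, 20 and 21. The bounds of the rule limit these counts at 2 d and 6 d. The shares over all genes were not computed, so the counts describe these genes and cannot be set against a background. The largest WT rise by 4 d among the named genes was that of the alpha-mannanase gene Mycth_104570, which had 26.7 and 26.5 CPM at 2 d, 284 and 220 CPM at 4 d and 87.6 and 95.6 CPM at 6 d in WT-Avi. By 6 d Mycth_2310322 was the lowest of the named genes relative to WT-Glu, with 13.1 and 12.4 CPM, 4.13 and 5.10 CPM, and 3.11 and 2.67 CPM on those days in WT-Avi, against 27.5 and 71.4 CPM in WT-Glu.

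In the libraries labelled ΔlaeA most of these genes were also low on Avicel at 2 d. At 2 d the fitted difference between ΔlaeA and WT had a median of -1.95 on the log2 scale over the 59 genes, against -0.03 over all 8827 genes fitted. Of the 59, 43 were at least 2-fold lower in ΔlaeA, as 12.7% of all genes were, and 0 at least 2-fold higher (6.33%). Both ΔlaeA libraries lay below both WT libraries in 46 genes (30.7% of all genes) and above them in 4 (46.8%). The WT libraries of 2 d entered the bounds of the rule, so these are descriptions. Mycth_2300067, whose product is not described, was the extreme, with 2.63 and 2.36 CPM in ΔlaeA-Avi-2d, against 993 and 1026 CPM in WT-Avi-2d. The carbohydrate esterase gene Mycth_105128 had 9.45 and 7.70 CPM in ΔlaeA-Avi-2d, against 206 and 192 CPM in WT-Avi-2d, and the regulator gene Mycth_117146 had 112 and 102 CPM, against 719 and 842 CPM. For these 3 genes the ΔlaeA level at 2 d was below or near that on glucose (5.60 and 6.23 CPM, 52.6 and 50.6 CPM, and 137 and 144 CPM in ΔlaeA-Glu). That did not hold for most of the list. The ΔlaeA-Avi-2d mean was above the ΔlaeA-Glu mean in 36 of the 59 genes and at least 2 times it in 15, with no share over all genes computed. Genes without a gap between ΔlaeA and WT at 2 d included the oxidoreductase gene Mycth_108836, with 46.7 and 69.6 CPM in ΔlaeA-Avi-2d, against 52.0 and 56.4 CPM in WT-Avi-2d. Another was the DUF706 gene Mycth_111314, with 529 and 1347 CPM, against 1286 and 683 CPM. In both the libraries of the groups overlapped.

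**Figure D4:**
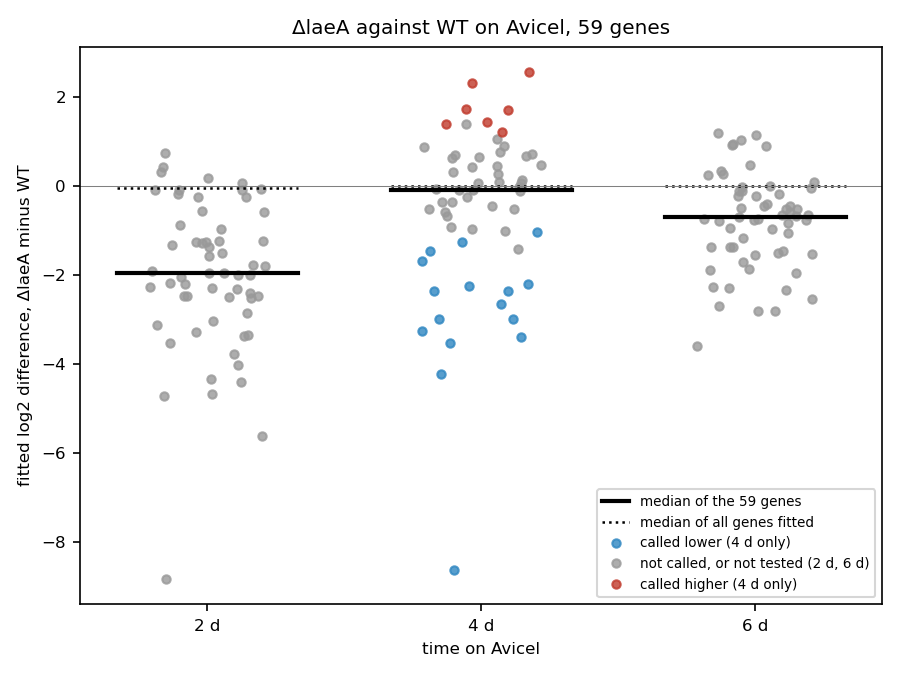
Fitted log2 difference, ΔlaeA minus WT on Avicel, of the 59 WT-high genes at 2, 4 and 6 d (each point a gene, spread sideways at random for visibility; thick line, median of the 59; dotted line, median of all 8827 genes fitted). The median is -1.95 at 2 d, -0.09 at 4 d and -0.69 at 6 d; colours mark the 16 genes called lower and the 7 called higher in ΔlaeA at 4 d, the one day on which no group entered the rule.

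At 4 d the group difference was near 0 in the median and split by gene. The libraries of this day took no part in the choice of genes, and the difference was tested with edgeR's quasi-likelihood test over all genes, with a call at an adjusted p below 0.05 and at least 2-fold. Of the 59 genes, 16 were called lower in ΔlaeA, against 9.95% of all genes tested, and 7 higher, against 9.17%, which makes 23 in either direction, against 19.1%, with 36 not called. The share called lower was thus above the background and that called higher near it. The rule had asked for genes lower in ΔlaeA than in WT on glucose. An excess in that direction is therefore not independent of the choice. The median was -0.09 on the log2 scale, against 0.01 over all genes, and between -0.28 and -0.16 when any 1 of the 4 libraries was left out (-0.28 without ΔlaeA-Avi-4d replicate 1).

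Both hydrolase genes were among those lower in ΔlaeA than in WT. The alpha-mannanase gene Mycth_104570 had 0.705 and 0.584 CPM in ΔlaeA-Avi-4d, against 284 and 220 CPM in WT-Avi-4d, a log2 difference of -8.61 ± 0.65 (standard error, edgeR adjusted p = 2.36e-07). The esterase gene Mycth_105128 had 182 and 75.8 CPM in ΔlaeA-Avi-4d, against 1388 and 1057 CPM in WT-Avi-4d (log2 difference -3.25 ± 0.38, edgeR adjusted p = 1.33e-05). Its neighbour Mycth_109790 had 34.4 and 23.4 CPM in ΔlaeA-Avi-4d, against 149 and 145 CPM in WT-Avi-4d (-2.36 ± 0.25, edgeR adjusted p = 2.79e-06). In none of these 3 genes did the libraries of the groups overlap.

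Of the genes with no product description, Mycth_2300067 had 14.3 and 13.3 CPM in ΔlaeA-Avi-4d, against 278 and 226 CPM in WT-Avi-4d (-4.21 ± 0.29 on the log2 scale, edgeR adjusted p = 3.12e-08). Mycth_2316580 had 98.8 and 48.6 CPM in ΔlaeA-Avi-4d, against 1019 and 660 CPM in WT-Avi-4d (-3.52 ± 0.30, edgeR adjusted p = 3.01e-07), and Mycth_2297595 had 15.8 and 7.24 CPM, against 164 and 74.7 CPM (-3.37 ± 0.49, edgeR adjusted p = 9.68e-05). These were also among the 8 genes with the largest ratio on glucose, a value that the rule used. Of those 8, Mycth_112824 (0.71 ± 0.71), Mycth_2310322 (-0.09 ± 0.36) and Mycth_2057132 (-1.40 ± 0.59) were not called at 4 d, and the others were called lower. The aminotransferase gene Mycth_2075738 had 8.20 and 8.68 CPM in ΔlaeA-Avi-4d, against 69.3 and 61.0 CPM in WT-Avi-4d (-2.97 ± 0.37, edgeR adjusted p = 1.49e-05). In the run of 3, Mycth_2297291 and Mycth_2297292 were called lower than in WT, with log2 differences of -2.19 ± 0.59 and -2.64 ± 0.37, while Mycth_2297294 had a difference of -0.92 ± 0.34, under 2-fold. The call of Mycth_2297291 was lost without ΔlaeA-Avi-4d replicate 2 (edgeR adjusted p = 0.0808). Mycth_2305454 (-2.24 ± 0.33) and Mycth_52496 (-1.46 ± 0.49, edgeR adjusted p = 0.031) were called lower as well, the last losing its call without any 1 of the 4 libraries (edgeR adjusted p from 0.0689 to 0.168). The 5 other genes called lower had log2 differences between -2.98 and -1.02.

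The genes higher in ΔlaeA than in WT at 4 d included 3 of the 8 with the highest WT-Glu CPM. Mycth_2134022 had 14.4 and 15.1 CPM in ΔlaeA-Avi-4d, against 1.71 and 3.09 CPM in WT-Avi-4d (2.57 ± 0.35 on the log2 scale, edgeR adjusted p = 3.77e-05). Mycth_94171 had 1094 and 993 CPM in ΔlaeA-Avi-4d, against 87.1 and 320 CPM in WT-Avi-4d (2.33 ± 0.57, edgeR adjusted p = 0.00525), and its WT libraries lay far apart, so that it had an adjusted p of 0.0841 when fitted with these 2 groups alone. Mycth_86146 had 2036 and 2118 CPM in ΔlaeA-Avi-4d, against 589 and 639 CPM in WT-Avi-4d (1.73 ± 0.43, edgeR adjusted p = 0.00495). Mycth_2308851 had 17.99 and 22.3 CPM, against 5.39 and 6.54 CPM (1.72 ± 0.40, edgeR adjusted p = 0.00338), and Mycth_2313040 had 3964 and 2369 CPM, against 985 and 1315 CPM (1.45 ± 0.37, edgeR adjusted p = 0.00587). The last of these lost its call without replicate 1 of either group (edgeR adjusted p = 0.068 without the WT library and 0.0772 without the ΔlaeA library). The 2 other genes called higher had log2 differences of 1.22 and 1.41.

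Among the genes not called at 4 d were the regulator gene Mycth_117146, with 3066 and 2282 CPM in ΔlaeA-Avi-4d, against 2052 and 2276 CPM in WT-Avi-4d (0.29 ± 0.29 on the log2 scale), and Mycth_61507, with 4133 and 2638 CPM, against 4492 and 3978 CPM (-0.34 ± 0.51). The second regulator gene, Mycth_2057132, had 6.68 and 7.87 CPM in ΔlaeA-Avi-4d, against 23.7 and 14.1 CPM in WT-Avi-4d, and its difference of -1.40 ± 0.59 did not pass (edgeR adjusted p = 0.0711). Neither regulator gene can be said to be alike in the groups from such a test. Of the 43 genes at least 2-fold lower at 2 d, 15 were called lower, 6 higher and 22 not called at 4 d. Of the other 16, 1 was called lower, 1 higher and 14 not called. The same split over all genes lower at 2 d was not computed.

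**Figure D5:**
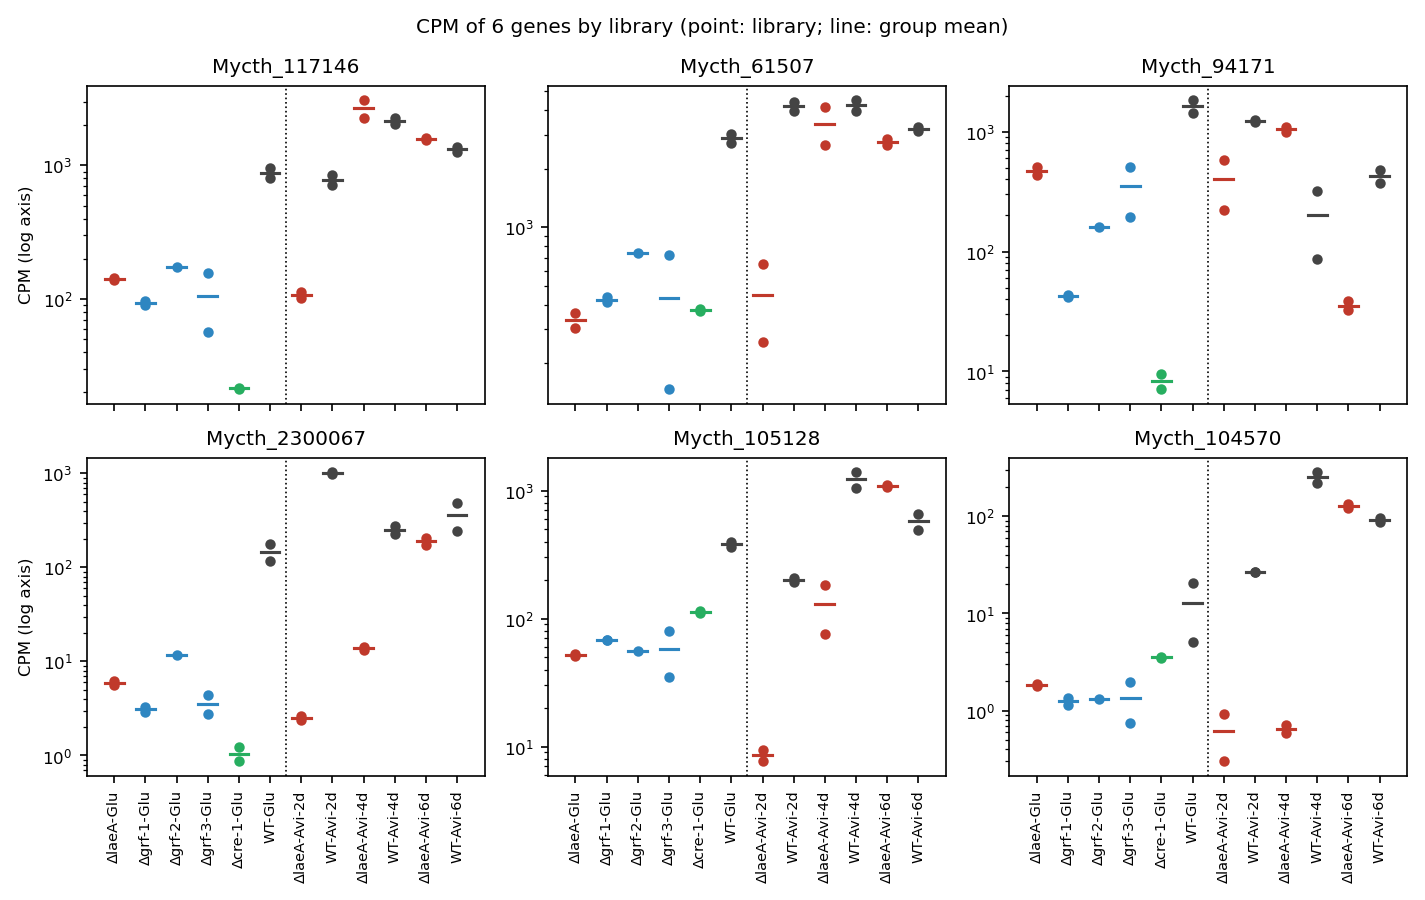
CPM (log axis, scaled to each panel) of 6 WT-high genes in every library by group; points are libraries and short lines group means, with glucose left and Avicel right of the dotted line. Mycth_117146, Mycth_61507 and Mycth_94171 are low in ΔlaeA-Avi-2d and at or above 993 CPM in both ΔlaeA-Avi-4d libraries, while Mycth_2300067, Mycth_105128 and Mycth_104570 are still below WT in ΔlaeA-Avi-4d and at 172 to 207, 1063 to 1106 and 122 to 133 CPM in ΔlaeA-Avi-6d.

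The rise between 2 d and 4 d in the label ΔlaeA gave the most calls in 1 direction of the 3 comparisons tested. Of the 59 genes, 29 were called higher in ΔlaeA-Avi-4d than in ΔlaeA-Avi-2d, against 13.4% of all genes tested, and 2 lower, against 10.2% (31 in either direction, against 23.6%). The median difference was 1.06 on the log2 scale, against 0.06 over all genes. All 8 genes of highest WT-Glu CPM were among the 29, of which Mycth_94171 (1.61 on the log2 scale) lost its call without ΔlaeA-Avi-2d replicate 2 (1.07) or either ΔlaeA-Avi-4d replicate (1.47 and 1.68). Mycth_2298375 rose most, to 155 and 127 CPM in ΔlaeA-Avi-4d, against 4.32 and 4.33 CPM in ΔlaeA-Avi-2d (5.27 ± 0.44, edgeR adjusted p = 4.31e-07), followed by Mycth_2313040, with 3964 and 2369 CPM, against 102 and 116 CPM (5.11 ± 0.43, edgeR adjusted p = 3.44e-07). The neighbouring regulator gene Mycth_117146 had 3066 and 2282 CPM in ΔlaeA-Avi-4d, against 112 and 102 CPM in ΔlaeA-Avi-2d (4.89 ± 0.34, edgeR adjusted p = 3.55e-08). Mycth_2311457 rose by 4.78 ± 0.40, Mycth_105128 by 4.17 ± 0.41, Mycth_2305454 by 4.04 ± 0.41, Mycth_86146 by 3.61 ± 0.46 and the RPEL gene Mycth_2095534 by 3.33 ± 0.39 on this scale. In each of these the libraries of the days did not overlap.

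The other neighbouring pair of high genes rose together, Mycth_61507 to 4133 and 2638 CPM in ΔlaeA-Avi-4d, against 646 and 258 CPM in ΔlaeA-Avi-2d (3.15 ± 0.55, edgeR adjusted p = 0.00033), and Mycth_75351 to 1122 and 719 CPM, against 245 and 122 CPM (2.57 ± 0.44, edgeR adjusted p = 0.000259). In both genes replicate 1 of 2 d was at least 2-fold above replicate 2. The alpha-mannanase gene Mycth_104570 did not share the rise, with 0.705 and 0.584 CPM in ΔlaeA-Avi-4d and 0.302 and 0.919 CPM in ΔlaeA-Avi-2d (0.34 ± 0.81, edgeR adjusted p = 0.755). The 2 genes that fell were Mycth_2313211 (-1.71 ± 0.40, edgeR adjusted p = 0.00247) and Mycth_2308758 (-1.33 ± 0.31, edgeR adjusted p = 0.00258). In WT the same step, given with no test because WT-Avi-2d entered the rule, was at least 2-fold up in 13 of the 59 genes and at least 2-fold down in 13, with a median of 0.02 on the log2 scale of mean CPM plus 0.5, where the ΔlaeA step had a median of 0.79. Over all genes with a mean of at least 10 CPM the medians were -0.07 in WT and -0.21 in ΔlaeA. The shares of all genes 2-fold up or down in mean CPM were not computed. The difference between these steps was not tested.

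Between 4 d and 6 d the label ΔlaeA went down in more genes than up. Of the 59, 20 were called lower in ΔlaeA-Avi-6d than in ΔlaeA-Avi-4d, against 13.0% of all genes tested, and 9 higher, against 12.6% (29 in either direction, against 25.5%), with a median of -0.76 on the log2 scale, against 0.01 over all genes. This comparison shares the ΔlaeA-Avi-4d libraries with the 2 before. The lower genes were led by Mycth_94171, with 38.3 and 32.3 CPM in ΔlaeA-Avi-6d, against 1094 and 993 CPM in ΔlaeA-Avi-4d (-5.11 ± 0.65, edgeR adjusted p = 2.31e-05), and Mycth_2303695, with 3.38 and 2.74 CPM, against 47.3 and 56.4 CPM (-4.30 ± 0.45, edgeR adjusted p = 2.43e-06). The oxidoreductase gene Mycth_108836 (-1.14 ± 0.39, edgeR adjusted p = 0.0233) and the DUF706 gene Mycth_111314 (-1.64 ± 0.49, edgeR adjusted p = 0.013) were also lower. The call of Mycth_108836 was lost without any 1 of the 4 libraries (edgeR adjusted p from 0.0632 to 0.104), and that of Mycth_111314 without ΔlaeA-Avi-4d replicate 1 (0.104) or ΔlaeA-Avi-6d replicate 2 (0.0858).

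Both hydrolase genes rose by 6 d. The alpha-mannanase gene Mycth_104570 rose to 122 and 133 CPM in ΔlaeA-Avi-6d, against 0.705 and 0.584 CPM in ΔlaeA-Avi-4d (7.38 ± 0.63, edgeR adjusted p = 5.37e-07), and Mycth_2300067 to 172 and 207 CPM, against 14.3 and 13.3 CPM (3.55 ± 0.28, edgeR adjusted p = 9.79e-08). The esterase gene Mycth_105128 had 1106 and 1063 CPM in ΔlaeA-Avi-6d, against 182 and 75.8 CPM in ΔlaeA-Avi-4d (2.83 ± 0.38, edgeR adjusted p = 2.52e-05), Mycth_2316580 had 590 and 484 CPM, against 98.8 and 48.6 CPM (2.62 ± 0.29, edgeR adjusted p = 2.87e-06), and Mycth_109790 had 127 and 116 CPM, against 34.4 and 23.4 CPM (1.84 ± 0.25, edgeR adjusted p = 1.87e-05). Of the other 4, Mycth_2298375 rose by 2.29 ± 0.37 and Mycth_2305454 by 1.21 ± 0.32. Mycth_2075738 (-0.73 ± 0.36), Mycth_2297291 (0.89 ± 0.58) and Mycth_2297292 (0.72 ± 0.36) were not called between these days.

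By 6 d the ΔlaeA and WT levels, again a description, were closer than at 2 d. The median difference was -0.69 on the log2 scale, against 0.01 over all genes, with 21 of the 59 genes at least 2-fold lower in ΔlaeA (10.7% of all genes) and 3 at least 2-fold higher (3.50%). Both ΔlaeA libraries lay below both WT libraries in 40 genes (32.5% of all genes) and above them in 10 (29.5%). Of the 43 genes at least 2-fold lower at 2 d, 15 were so at 6 d as well, with no such share over all genes computed. The alpha-mannanase gene Mycth_104570 had 122 and 133 CPM in ΔlaeA-Avi-6d, against 87.6 and 95.6 CPM in WT-Avi-6d, and the esterase gene Mycth_105128 had 1106 and 1063 CPM, against 661 and 494 CPM, so that neither was then below WT. Mycth_94171 lay furthest below, with 38.3 and 32.3 CPM in ΔlaeA-Avi-6d, against 377 and 479 CPM in WT-Avi-6d. The regulator gene Mycth_2057132 had 5.28 and 4.48 CPM in ΔlaeA-Avi-6d, against 34.2 and 28.6 CPM in WT-Avi-6d, while the regulator gene Mycth_117146 had 1609 and 1543 CPM, against 1257 and 1384 CPM.

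The 25 genes not named by the rule had WT-Glu means from 11.01 to 505 CPM and WT to highest deletion ratios from 3.07 to 5.46. Among them 5 were called lower (9.95% of all genes tested) and 2 higher (9.17%) in ΔlaeA than in WT at 4 d. In ΔlaeA at 4 d against 2 d, 9 were called higher (13.4%) and 0 lower (10.2%), the 9 with log2 differences from 1.04 to 4.22. At 6 d against 4 d, 2 were called higher (12.6%) and 11 lower (13.0%), the 11 with log2 differences between -3.04 and -1.12. The naming rule had taken out the largest called changes, so these counts are shaped by the calls and are not a result about the 25.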

How the data were processed

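Read counts per gene of 23 libraries were used as the authors deposited them, made from TopHat2 2.0.8b alignments with HTSeq (0.5.4p2 in the submitters' processing notes, another version in the study's methods). No source used here names the genome build, and none says whether counting used strand. Beside the 9110 genes read, 2 lines without a gene were left out. The column deposited for replicate 1 of Δgrf-2-Glu holds RPKM that the authors computed from both Δgrf-1 libraries (whole gene lengths, to within 0.01 base, at 8865 of 8865 genes, against 2.79% with the other Δgrf-2 library). It was used only to recover gene lengths, so Δgrf-2-Glu had 1 library, whose spread the fit takes from the replicated groups.

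The gene list was chosen on CPM by library total, and CPM in the text are these. Members, gene lists and tests were chosen with earlier results of these data known. All 23 libraries were fitted with 1 coefficient for each of 12 groups in edgeR 4.0.16 (R 4.3.3): quasi-likelihood F-test, robust dispersions, TMM scaling, filterByExpr (8827 genes, all 59 members among them, 11 residual degrees of freedom, common dispersion 0.0312), Benjamini-Hochberg adjustment over all genes tested. Standard errors are the absolute log2 difference over the root of F. A run of the fit on simulated counts missed part of the simulated 2-fold changes, so a gene not called can still differ. Every pair of replicates differed by more than sampling noise (chi-square per degree of freedom from 3.19 to 274, where 1 is noise). Figures used Python 3.11.15 and matplotlib 3.10.9.

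Genes were named by rule: the 8 highest in WT-Glu, the 8 with the largest ratio to the highest deletion mean, 2 on either side of the threshold, the 4 largest called changes in each direction at 4 d and the 2 largest in each direction of either ΔlaeA step, runs of 3 and genes with a product description. Other genes of a run or beside one were named after their values were seen. Gene IDs matched the reference (RefSeq assembly ASM22609v1) for 9087 genes, used for gene order only, since the build of the counts is not stated. Product text came from the study's supplementary descriptions. Alternatives were RLE size factors, library totals, other filters, DESeq2 1.42.0, fewer groups in the fit, a replicate block, adjusted p alone, other folds and minimums for the list, and each library left out.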

Additional observations from a re-analysis of the deposited data

How the results depend on the processing

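The list moved with the fold asked of WT-Glu over every deletion mean: a fold of 2 gave 132 genes and a fold of 4 gave 20, against 59. TMM-scaled totals gave 48 genes, 44 of them shared, RLE size factors 50 with 46 shared, and a minimum of 20 CPM 50, all shared. Leaving out 1 library at a time gave 40 to 78 genes, with 66 and 40 without a WT-Glu library, 78 without the single Δgrf-2-Glu library and 54 to 59 without any other. TMM lowered WT-Glu against the 5 deletion labels by 0.03 to 0.60 on the log2 scale, ΔlaeA at 2 d against WT by 0.16, and raised the step of ΔlaeA between 2 d and 4 d by 0.24 and lowered that between 4 d and 6 d by 0.23, relative to library totals.

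The median log2 difference of ΔlaeA from WT was -1.80 at 2 d with library totals, against -1.95. Without 1 library of the groups compared it ran from -2.05 to -1.88 at 2 d, from -0.28 to -0.16 at 4 d and from -0.78 to -0.56 at 6 d. At 4 d that is over 1.5 times the main value of -0.09, without any of the 4 libraries. The direction did not change under the alternatives run. Counts of members called stayed within 1.5 times the main counts. At 4 d, leave-one-out fits called 5 to 10 members higher and 12 to 16 lower. ΔlaeA at 4 d against 2 d gave 25 to 28 higher and 2 lower, and 6 d against 4 d gave 9 to 10 higher and 14 to 19 lower. The number of all genes called moved in these fits as well. A fit with 1 library left in a group assumes that it varies like the others. Of the calls on named genes, 8 of 192 refits lost the call at 4 d, 13 of 264 between 2 d and 4 d, and 17 of 192 between 4 d and 6 d, with 0 reversed.

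Replicate numbers did not pair the libraries: of 55 correlations of same-numbered deviations, from -0.15 to 0.12, 2 were over 0.1. With the replicate number as a block, 8 members were called higher and 16 lower at 4 d (809 and 870 of all genes). For 4 d against 2 d these counts were 29 and 2 (1174 and 902 of all genes). For 6 d against 4 d they were 9 and 21 (1113 and 1137 of all genes). The medians for ΔlaeA against WT at 2, 4 and 6 d were -1.96, -0.08 and -0.67 with the block.

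With 2 libraries a group, the spread is estimated over all groups, although the libraries of a pair were 2-fold apart in 0% of genes with at least 10 CPM in ΔlaeA-Glu and in 9.52% in Δgrf-3-Glu. Values near the floor of 3 counts rest on few reads.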
